A study of Drosophila melanogaster with 7 samples.

Results

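The 10 mesoderm and ventral furrow genes twi, sna, zfh1, tin, Mef2, htl, stumps, fog, T48 and wntD were followed in nascent RNA of Drosophila melanogaster embryos at cycle 14. They were chosen by symbol, and each was matched to its FlyBase identifier among the 17753 genes of the gene-body count table and again in the exon count table, so that all 10 were found in both. The Gro-seq libraries came from 4 TM and 3 ctr replicates of hand-staged embryos of stage 5, aged at 25 °C, to ask how loss of H3K9me2/3 affects transcription. TM stands for the triple mutant, labelled as lacking the H3K9 histone methyltransferases, and ctr is labelled as wild type. By the methods of the study, the mothers of TM embryos were homozygous for a Su(var)3-9 knockout and expressed shRNAs against dSetDB1 (egg) and G9a from the maternal tubulin Gal4 driver, so that depletion took place in the germline. The ctr embryos came from crosses of the TRiP background line. The library names of both groups also share a second cross code, NI746, which the labels do not explain. In Gro-seq, nuclei are isolated, engaged RNA polymerases extend their transcripts with biotinylated UTP, and the labeled RNA is purified and sequenced. Each library is a pool of whole embryos, so that fewer transcribing cells and less RNA per cell cannot be told apart.

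The mesoderm of the fly arises from a ventral strip of the blastoderm, where nuclear Dorsal, the end point of the maternal Toll pathway, switches on twi and sna. Twist activates mesodermal genes and Snail represses neighboring fates, and both are needed for the ventral furrow, in which cells constrict apically and fold inward. Fog and T48 act upstream of RhoGEF2 in that constriction, the FGF receptor Heartless and its adaptor Stumps guide the spreading of the internalized cells, and tin, Mef2 and zfh1 act in the later subdivision of the mesoderm into heart, muscle and other derivatives.

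Start-site sequences are shown for the members transcribed from a single annotated start whose windows either hold the rarest of the motifs searched (sna and wntD) or belong to the member with the smallest p-value (T48). Each window runs from 250 bases before to 30 bases after the start of the RefSeq transcript (Release 6 assembly, dm6), on the strand of the gene: chr2L:15478231-15478510 (minus strand) for sna, chr3R:13293169-13293448 (minus strand) for wntD and chr3R:26881484-26881763 (plus strand) for T48. Capitals mark matches to CAGGTAG (the site of the early activator Zelda), CACATG or CATATG (E-boxes bound by Twist), CAGGTG (bound by Snail), GGGNNNNCC (a loose form of the Dorsal site), all on both strands, and TATAAA and TCAGT (TATA box and initiator) on the gene strand. CAGGTAG and CAGGTG share their first 5 bases but differ at the sixth, so that no match counts for both.
sna: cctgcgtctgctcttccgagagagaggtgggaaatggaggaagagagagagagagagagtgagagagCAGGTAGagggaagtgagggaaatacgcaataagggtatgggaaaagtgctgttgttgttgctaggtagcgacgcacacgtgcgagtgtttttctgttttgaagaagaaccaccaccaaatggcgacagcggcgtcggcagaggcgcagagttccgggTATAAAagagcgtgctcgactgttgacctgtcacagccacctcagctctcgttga
wntD: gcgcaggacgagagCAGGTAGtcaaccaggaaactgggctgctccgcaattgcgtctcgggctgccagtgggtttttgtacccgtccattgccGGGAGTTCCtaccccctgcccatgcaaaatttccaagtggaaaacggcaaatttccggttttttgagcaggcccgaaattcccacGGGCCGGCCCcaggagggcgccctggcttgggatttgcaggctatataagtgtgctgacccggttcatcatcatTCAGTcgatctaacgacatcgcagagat
T48: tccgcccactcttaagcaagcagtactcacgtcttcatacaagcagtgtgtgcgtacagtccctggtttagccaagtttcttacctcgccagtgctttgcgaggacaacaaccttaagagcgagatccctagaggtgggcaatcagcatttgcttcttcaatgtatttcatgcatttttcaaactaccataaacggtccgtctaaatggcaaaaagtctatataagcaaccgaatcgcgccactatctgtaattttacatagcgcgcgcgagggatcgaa
The sna window held CAGGTAG with its first base 183 bases before the start and TATAAA 25 bases before it. The wntD window held CAGGTAG 236 bases before the start, GGGNNNNCC at 157 and 72 bases before it on the gene strand and at 71 bases on the other, and TCAGT beginning at base 3 of the transcript. Of 19287 windows of this length at RefSeq mRNA starts, 1.61% held the Zelda site, 12.9% the loose Dorsal site, 9.04% the Snail site, 28.5% the TATA box and 35.3% the initiator. The E-box CACATG stood in 9.66% of the windows, and the other E-box in 7.7%. None of these letters occurred in the T48 window. These matches describe the letters present and were not linked to binding in these embryos.

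The gene-body libraries held 18889493 to 22200059 counts in TM and 19547254 to 21298129 counts in ctr, and the 10 genes took 0.347% to 0.448% of them in TM and 0.37% to 0.392% in ctr. TM4 stood furthest from the other TM libraries, and TM1 also stood off from TM2 and TM3. Over 3880 well-covered genes, the chi-square per degree of freedom was 80.1 to 199 for pairs with TM4, and highest for TM1 with TM4. It was 46.4 and 63.2 for TM1 with TM2 and TM3, 25.4 for TM2 with TM3, and 20.9 to 26.1 among ctr pairs. Results of the 10 genes that rest on TM4 are therefore given with and without it. The targeted genes did not check the labels: egg had 31.5 to 45.2 CPM (counts of a gene over the TMM-scaled library total) in TM and 28 to 36.6 CPM in ctr, and G9a had 117 to 159 CPM in TM and 143 to 148 CPM in ctr. Both were targeted as maternal RNA, which a run-on does not measure. Su(var)3-9 was listed at 0 in the gene-body table. In the exon table, where it shares exons with another gene, it had 119 to 131 CPM in TM and 135 to 156 CPM in ctr (log2 fold change -0.20, edgeR adjusted p = 0.201). Genes of differentiated muscle summed to 119.4 to 168.4 CPM in TM and 114.4 to 140.4 CPM in ctr over 12 genes. The genes with the most counts among them were bt, a giant titin-like protein, which was higher in TM (46.7 to 68.7 CPM in TM and 22.1 to 43.2 CPM in ctr, log2 fold change 0.90, edgeR adjusted p = 0.01), and the actin gene Act87E, which did not pass (-0.42). With exon counts, bt was again higher (0.90, edgeR adjusted p = 0.00843), and Prm (-1.25, adjusted p = 0.0171) and sls (-0.67, adjusted p = 0.0383) were lower. Germ cell genes summed to 209.1 to 230.4 CPM in TM and 191.2 to 208.6 CPM in ctr over 6 genes, of which aub passed the test (log2 fold change 1.07, edgeR adjusted p = 0.0012), and the genes with the most counts, ovo and pgc, had -0.29 and 0.23.

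All 10 genes were transcribed in every library, and none of them passed the test between TM and ctr. Their log2 fold changes lay between -0.29 (T48) and 0.15 (twi), with a median of 0.01 beside 0.03 over all genes tested. Of 10917 genes tested, 10.8% passed at an adjusted p under 0.05 (edgeR's quasi-likelihood test, Benjamini-Hochberg adjustment), 4.45% higher and 6.38% lower in TM. The count of 1183 genes fell to 766 without TM2, to 688 without ctr1 and to 691 without ctr2, and library totals alone in place of TMM factors gave 614 higher and 488 lower, against 486 higher and 697 lower. Among the 10 genes, 6 had a positive and 4 a negative fold change, and 1 of them, T48, had an unadjusted p under 0.05. The groups overlapped for 9 of the 10 genes. By gene-body counts, only T48 had every TM library below every ctr library, which was the case for 12.5% of the genes tested. The exon counts gave 0 of 10 genes past the threshold and 0 with an unadjusted p under 0.05, beside 6.57% called among 14021 genes. With DESeq2 in place of edgeR, T48 was the 1 gene past the threshold, beside 13.6% of all genes.

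**Figure D1:**
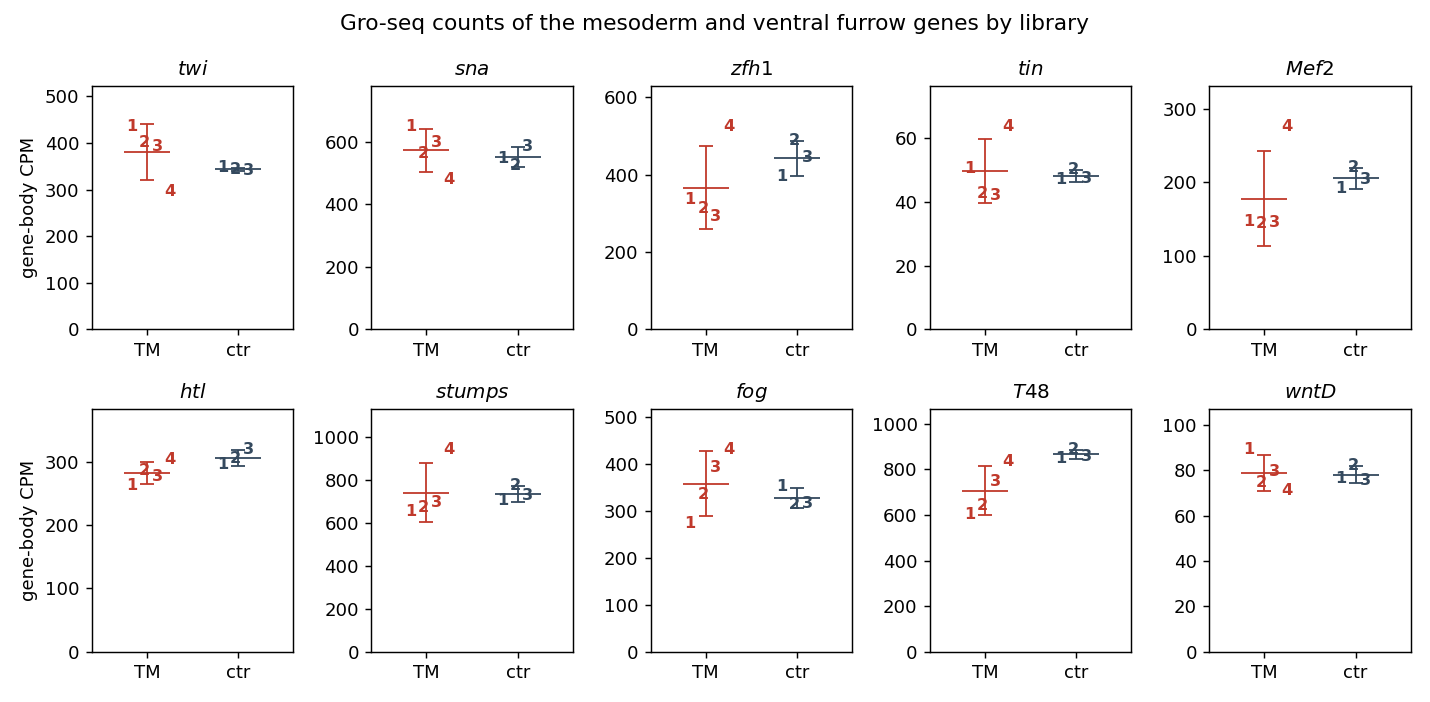
Gene-body CPM (y axis, from 0) of the 10 genes in TM (red, left) and ctr (blue, right); digits are replicate numbers, horizontal bars are group means and whiskers are SD. TM4 is the highest of the 7 libraries for zfh1, tin, Mef2, stumps and fog and the lowest for twi, sna and wntD, and all TM libraries of T48 (600.2 to 837 CPM) lie below the ctr libraries (849 to 889 CPM).

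Of the 2 genes that set up the mesoderm, twi, the bHLH activator, had 435, 402, 393 and 296 CPM in TM1 to TM4 and 347, 343 and 341 CPM in ctr1 to ctr3. TM1, TM2 and TM3 were above all ctr libraries and TM4 was below them, so that the groups overlapped. The log2 fold change was 0.15 ± 0.11 (SE; edgeR adjusted p = 0.44), and 0.25 ± 0.07 without TM4 (adjusted p = 0.0168). sna, the zinc finger repressor, had 647, 563, 596 and 480.2 CPM in TM1 to TM4 and 545, 523 and 584 CPM in ctr1 to ctr3. As for twi, TM1 was the highest and TM4 the lowest of the 7 libraries. The fold change of sna was 0.05 ± 0.10 on the log2 scale (edgeR adjusted p = 0.807) and 0.13 ± 0.07 without TM4 (adjusted p = 0.265). The ratio of twi to sna ranged from 0.616 to 0.714 in TM and from 0.584 to 0.657 in ctr, so that the pair kept a narrower proportion than either gene's own TM range. twi lies on 2R (chr2R:22985374-23048325, plus strand) and sna on 2L (chr2L:15476593-15478260, minus strand).

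For the 3 transcription factors of the later mesoderm, TM4 was the highest of the 7 libraries, and not the lowest. Mef2 (chr2R:9913496-9958858, minus strand), the MADS box factor of muscle differentiation, had 146, 144, 145 and 275 CPM in TM1 to TM4 and 191, 220.3 and 204 CPM in ctr1 to ctr3. TM1, TM2 and TM3 lay within 3 CPM of each other and below every ctr library, whereas TM4 lay above every ctr library. Over all 7 libraries the log2 fold change was -0.21 ± 0.26 (edgeR adjusted p = 0.703), and without TM4 it was -0.50 ± 0.08 (adjusted p = 0.000313). zfh1 (chr3R:30765926-30789202, plus strand), a zinc finger homeodomain factor, had 335, 313, 292 and 524 CPM in TM1 to TM4 and 395, 487 and 444 CPM in ctr1 to ctr3. The same split held: TM4 was the highest of the 7 libraries and the other TM libraries were the 3 lowest. Its log2 fold change was -0.27 ± 0.20 (edgeR adjusted p = 0.479), and -0.50 ± 0.08 without TM4 (adjusted p = 0.000346). tin (chr3R:21378977-21381970, plus strand), the homeodomain factor of heart and visceral muscle, had the fewest gene-body counts of the 10 genes, with 50.6, 42.6, 42 and 63.6 CPM in TM1 to TM4 and 46.9, 50.2 and 47.3 CPM in ctr1 to ctr3. TM4 was again the highest, but TM1 was second, and the change was 0.05 ± 0.15 (log2; edgeR adjusted p = 0.90) and -0.10 ± 0.14 without TM4 (adjusted p = 0.728).

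For the FGF pathway, htl (chr3R:18045216-18052984, minus strand), which encodes the receptor, had 262, 286, 277 and 304 CPM in TM1 to TM4 and 295, 305 and 320.2 CPM in ctr1 to ctr3. TM1, TM2 and TM3 were the 3 lowest libraries, and TM4 fell between ctr1 and ctr2. The log2 fold change of htl was -0.12 ± 0.08 (edgeR adjusted p = 0.403), the smallest standard error of the 10 genes. Exon counts of htl were 137 to 155 CPM in TM and 161 to 166 CPM in ctr, without overlap, and gave a log2 fold change of -0.15 ± 0.08 (edgeR adjusted p = 0.339). It was the only one of the 10 genes whose exon counts put every TM library below ctr, beside 10.8% of 14021 genes. stumps (chr3R:14577217-14608079, plus strand), which encodes the adaptor, had 653, 669.8, 694 and 943 CPM in TM1 to TM4 and 702, 775 and 726 CPM in ctr1 to ctr3. TM4 stood apart from the other TM libraries, which were the 3 lowest of the 7. The fold change of stumps was 0.01 ± 0.11 (log2; edgeR adjusted p = 0.974) and -0.13 ± 0.06 without TM4 (adjusted p = 0.207).

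Of the effectors of furrow formation, T48 (chr3R:26881734-26910997, plus strand), which encodes a transmembrane protein that brings RhoGEF2 to the apical membrane, had 600.2, 641, 748 and 837 CPM in TM1 to TM4 and 849, 889 and 858 CPM in ctr1 to ctr3. Every TM library was below every ctr library, and the TM libraries spread widely below them. The log2 fold change was -0.29 ± 0.10 (unadjusted p = 0.012, edgeR adjusted p = 0.0833). Without TM4 it was -0.39 ± 0.08 (adjusted p = 0.00171), and with all 7 libraries DESeq2 gave -0.29 (adjusted p = 0.048). Exon counts of T48 gave -0.05 ± 0.10 (edgeR adjusted p = 0.856). fog (chrX:22824317-22855194, minus strand), which encodes the secreted ligand of the same pathway, had 272, 336, 393 and 432 CPM in TM1 to TM4 and 351, 315 and 316 CPM in ctr1 to ctr3. TM1 was the lowest and TM4 the highest library, on both sides of ctr, and the log2 fold change was 0.13 ± 0.13 (edgeR adjusted p = 0.599). It was 0.03 ± 0.11 without TM4 and 0.24 ± 0.10 without TM1 (adjusted p = 0.92 and 0.153). In TM the order of the libraries was the same for fog and T48, and the ratio of fog to T48 was 0.454 to 0.525 in TM and 0.354 to 0.414 in ctr, without overlap. This ratio was looked at after the values were seen and was not tested. wntD (chr3R:13292052-13293198, minus strand), a Wnt ligand that feeds back on Toll signaling, had 89.2, 74.8, 79.5 and 71.2 CPM in TM1 to TM4 and 76.3, 82.2 and 75.5 CPM in ctr1 to ctr3. The groups interleaved, with TM1 highest and TM4 lowest, and the log2 fold change was 0.01 ± 0.11 (edgeR adjusted p = 0.966) and 0.06 ± 0.11 without TM4 (adjusted p = 0.805).

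Leaving out TM4 brought 4 of the 10 genes past the threshold. By gene-body counts, twi was higher, and Mef2, zfh1 and T48 were lower, in TM1 to TM3 than in ctr. In the same fit 15.3% of 10894 genes were called, 6.63% higher and 8.67% lower. The 4 genes were also the ones called when TM1 and TM4 were both left out, a choice made after the data were seen, with 13.3% of all genes called. Leaving out any other single library left 0 of the 10 past the threshold. Exon counts without TM4 were not tested. Exon CPM of TM1 to TM3 overlapped ctr for zfh1 (128.7, 115.4 and 109.4 against 108.1, 126.1 and 122.5). They also overlapped for T48 (71.6, 87.1 and 82.3 against 88.6, 84.7 and 90.8). By exon CPM, twi again lay above, and Mef2 below, every ctr library in TM1 to TM3.

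**Figure D2:**
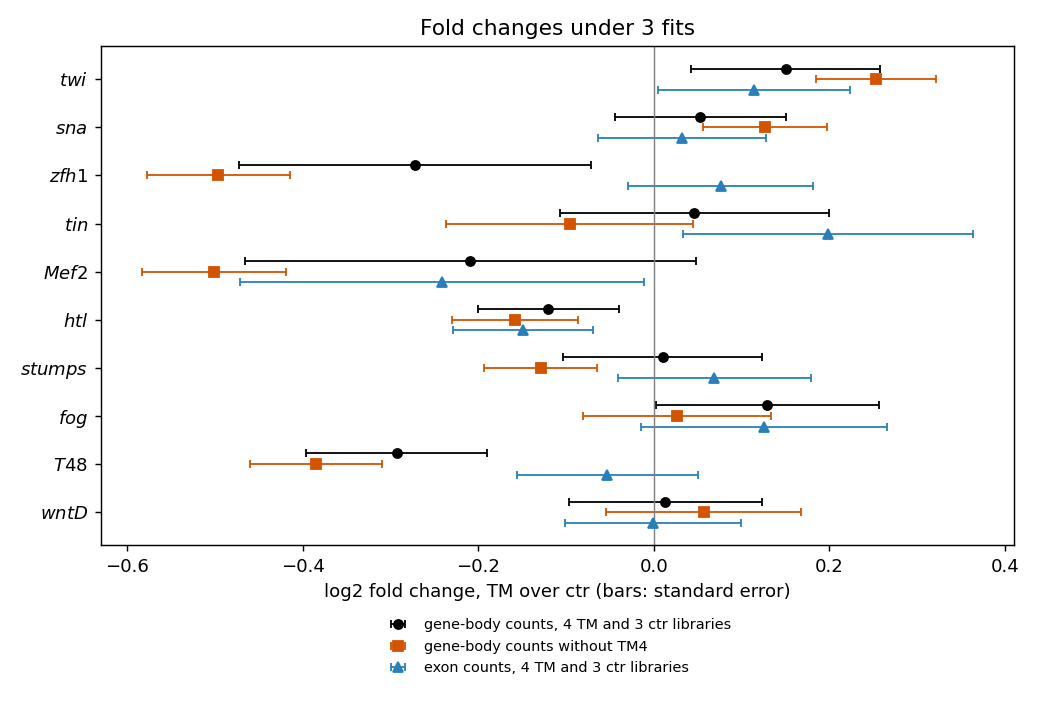
Log2 fold change of TM over ctr (x axis) with its standard error for each of the 10 genes, from gene-body counts of all libraries (black), gene-body counts without TM4 (orange) and exon counts of all libraries (blue). Without TM4, Mef2 and zfh1 move to -0.50 and twi to 0.25, while exon counts place T48 at -0.05 and zfh1 at 0.08.

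The spread between TM libraries was wide for some of these genes and not for others. The log2 range from the lowest to the highest library was wider in TM than in ctr for 10 of the 10 genes, and for 73% of the 5586 genes that averaged 500 counts or more, where 4 TM libraries are set against 3 of ctr. The TM range was 0.94 for Mef2 and 0.84 for zfh1, against 0.20 and 0.30 in ctr, and only 4.37% and 6.27% of those genes had a wider TM range. For htl and wntD, in contrast, 81% and 57.4% of those genes had a wider TM range, and for sna and T48 38.3% and 31.3%. The median gene had a range of 0.36 in TM and 0.23 in ctr. twi had one of the narrowest ranges in ctr, 0.03, with 98.7% of genes wider, and 0.56 in TM. TM4 was the highest of all 7 libraries for 5 of the 10 genes (stumps, tin, Mef2, zfh1 and fog) and the lowest for 3 (twi, sna and wntD), where over all such genes it was highest for 15.7% and lowest for 18.9%. TM1 was the highest library for those same 3 genes and the lowest for 4 (htl, stumps, fog and T48), beside 17.3% and 23% of genes. The ratio of twi to zfh1 put this together: it was 1.3, 1.28, 1.34 and 0.565 in TM1 to TM4, and 0.878, 0.705 and 0.768 in ctr1 to ctr3. The ratio of sna to Mef2 behaved alike, with 4.42, 3.91, 4.1 and 1.74 in TM1 to TM4 and 2.85, 2.37 and 2.86 in ctr1 to ctr3. zfh1 and Mef2 kept their proportion, 1.9 to 2.29 in TM and 2.06 to 2.21 in ctr. These ratios were chosen after the values were seen and are given without a test.

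Genes of cellularization, which is under way at this stage and ends as the furrow forms, differed widely between the TM libraries. The 5 listed genes summed to 7588, 5196, 5011 and 2354 CPM in TM1 to TM4 and to 3369, 2975 and 4038 CPM in ctr1 to ctr3. These sums were above every ctr library in TM1, TM2 and TM3 and below every ctr library in TM4, and slam made up the largest part of each. slam, needed for membrane growth between the nuclei, had 5138, 3346, 3237 and 1351 CPM in TM1 to TM4 and 2302, 1989 and 2817 CPM in ctr1 to ctr3. nullo, which stabilizes the furrow tips, had 69.1, 23.5, 19.1 and 4.05 CPM in TM1 to TM4 and 8.53, 2.77 and 10.1 CPM in ctr1 to ctr3. bnk and halo were also highest in TM1 and lowest in TM4 among the TM libraries. In TM4, bnk had 213 CPM (211 to 299.6 CPM in ctr) and halo 786 CPM (768 to 911 CPM in ctr). Only slam had TM4 below every ctr library, whereas nullo, bnk and halo in TM4 lay within the ctr range. Sry-alpha was listed at 0 in every library of the gene-body table, and its exon counts gave a log2 fold change of 0.33 (edgeR adjusted p = 0.738). The gene-body log2 fold changes of the other 4 genes were 0.46 for slam, 0.64 for halo, 0.83 for bnk and 2.03 for nullo (edgeR adjusted p = 0.626, 0.181, 0.298 and 0.32). Of these 4, 1 passed without TM4. The part of this difference between libraries in the values of the mesoderm genes was not tested.

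**Figure D3:**
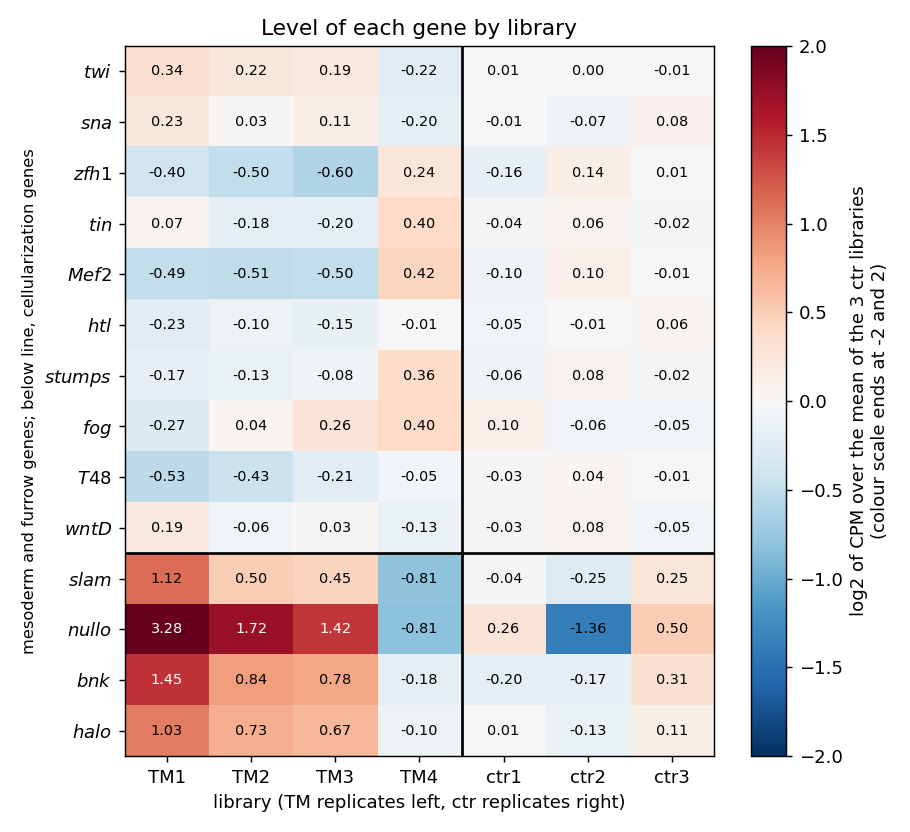
Log2 of the CPM of each library over the mean of the 3 ctr libraries, for the 10 genes (above the line) and 4 cellularization genes (below it); TM libraries are left of ctr libraries and the color scale ends at -2 and 2. TM4 is opposite in sign to TM1, TM2 and TM3 for twi, sna, zfh1, Mef2, stumps, slam, nullo, bnk and halo.

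Exon counts were set against gene-body counts. The exon table is not a part of the gene-body table: Sry-alpha, at 0 in the gene-body table, had exon counts. Gene-body counts take in introns, and for 6 of the 10 genes (twi, stumps, Mef2, zfh1, fog and T48) exons make up less than 50% of the gene body. Exon counts as a percent of gene-body counts are called the share here. The share was 19.1%, 21.8%, 17.8% and 18.8% for T48 in TM1 to TM4 and 16.5%, 15.1% and 16.8% in ctr1 to ctr3. For zfh1 it was 61.5%, 59%, 60.5% and 45.1% in TM1 to TM4 and 43.3%, 40.9% and 43.7% in ctr1 to ctr3. In both genes every TM library was above every ctr library, which was the case for 2 of these 6 genes and for 18.3% of 1605 genes of this kind. The median gene of this kind also had a higher share in TM, 62.8% to 64.7%, than in ctr, 60.2% to 61.8%. With exon counts, zfh1 had a log2 fold change of 0.08 ± 0.10 (edgeR adjusted p = 0.785), opposite in sign to its gene-body value, whereas Mef2 had -0.24 ± 0.23 (adjusted p = 0.665), close to its gene-body value. For stumps, fog and Mef2 the shares overlapped between groups at 50% to 52.9%, 31.4% to 34.3% and 36.6% to 42.5% in TM and 47.3% to 51.7%, 30% to 35.1% and 35.2% to 41.9% in ctr. twi was an exception among the 6 genes: its gene model of 62952 bases reaches to a distal start site. Its share was nevertheless 90.6% to 94.5% in TM and 92.8% to 95.3% in ctr. The intronless genes sna and wntD came out between 98.5% and 104%, the 2 tables having been counted separately. twi and fog each overlap 1 other gene on their own strand, and their gene-body counts leave out the reads shared with it. On the opposite strand, zfh1, T48, stumps and fog each overlap 1 gene, and twi overlaps 3. Whether the exon counts took in reads of that strand was not tested. For these genes the share therefore does not place the reads in exons or introns.

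**Figure D4:**
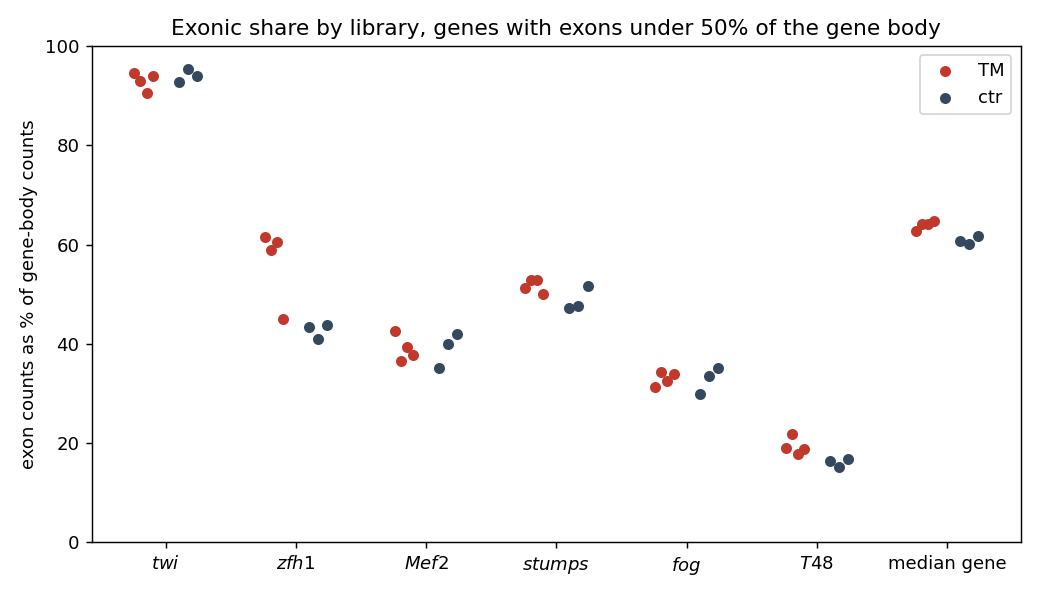
Exon counts as a percent of gene-body counts (y axis) in each TM (red, left) and ctr (blue, right) library for the 6 genes with exons under 50% of the gene body, and for the median gene of that kind. zfh1 and T48 have every TM library above every ctr library, with zfh1 in TM4 (45.1%) close to ctr (40.9% to 43.7%).

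Per kilobase of exon, levels fell over a wide range. sna was the highest in both groups, with 212 ± 24.8 exon CPM per kb in TM and 208 ± 9.53 in ctr (SD, n = 4 and n = 3). twi followed with 92.5 ± 14.6 in TM and 85.5 ± 1.15 in ctr, and no library of twi reached any library of sna. wntD (43 ± 3.44 in TM and 43 ± 2.09 in ctr) and stumps (42.5 ± 6.91 in TM and 40.5 ± 2.66 in ctr) came next and overlapped in both groups, as did stumps and htl (35.9 ± 2.01 in TM and 39.8 ± 0.67 in ctr). T48 had 34.7 ± 4.57 exon CPM per kb in TM and 35.9 ± 1.24 in ctr. It overlapped htl in TM and lay below it in ctr. zfh1 (18.1 ± 2.46 in TM and 17.2 ± 1.38 in ctr), tin (15.9 ± 2.89 in TM and 13.8 ± 1.13 in ctr) and fog (11.3 ± 2.44 in TM and 10.3 ± 0.30 in ctr) overlapped from neighbor to neighbor in TM and were separate in ctr. Mef2 was the lowest at 4.68 ± 1.61 in TM and 5.53 ± 0.78 in ctr. The order of these exon means was the same in both groups. Per kilobase of gene body the order was another. There, zfh1 had 15.7 CPM in TM and 19 in ctr, and tin had 16.6 and 16.1. twi had 6.06 CPM per kb of gene body in TM and 5.46 in ctr, below both.

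Of 10 genes tested from 13 listed in the Toll and Dorsal pathway, 1 was higher and 2 were lower in TM. Among all genes tested, 4.45% were higher and 6.38% lower, the shares that also apply to the lists that follow. The values are of transcription in the embryo, and not of maternal RNA of these genes. Tl, which encodes the receptor, had 185, 244, 223 and 276 CPM in TM1 to TM4 and 366, 375 and 329 CPM in ctr1 to ctr3. The log2 fold change of Tl was -0.62 (edgeR adjusted p = 0.00163), and -0.43 with exon counts (adjusted p = 0.11). pip, the sulfotransferase that sets up ventral fate in the egg chamber, had 4.94 to 7.7 CPM in TM and 11.8 to 20.7 CPM in ctr (log2 fold change -1.33, edgeR adjusted p = 0.00763). With exon counts pip was again lower (-1.79, edgeR adjusted p = 0.000231). pll, the kinase downstream of the receptor, was higher at 50.4 to 55.5 CPM in TM and 35.2 to 42.9 CPM in ctr (log2 fold change 0.43, edgeR adjusted p = 0.0438). With exon counts pll did not pass (edgeR adjusted p = 0.0544). cact, the inhibitor that holds Dorsal in the cytoplasm, had the most gene-body counts of the list, with 915 to 1004 CPM in TM and 963 to 978 CPM in ctr (log2 fold change -0.03). dl, which encodes Dorsal and is supplied maternally, had 0.408 to 2.3 CPM in TM and 0 to 2.95 CPM in ctr. The median log2 fold change of the list was 0.31, beside 0.03 over all genes. This median fell between gd (0.28, 2.1 to 8.22 CPM in TM) and dl (0.35), both with few counts. The highest values, of ea, ndl and wbl (2.76, 0.99 and 0.80), also came from genes with few counts. Among the genes with more counts, cact, Tl, tub and pll had -0.03, -0.62, 0.15 and 0.43. No gene of the list was called higher without TM2, TM3, ctr1, ctr2 or ctr3, and without ctr3 1 gene of the list passed.

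In the apical constriction pathway, 0 of 15 genes were higher and 2 were lower. RhoGEF2, the exchange factor that activates Rho1 under Fog and T48, had 249.8, 227, 227 and 229 CPM in TM1 to TM4 and 372, 356 and 355 CPM in ctr1 to ctr3. The groups did not overlap, and TM4 lay beside TM2 and TM3. The log2 fold change was -0.63 ± 0.08 (edgeR adjusted p = 5.56e-05), and -0.66 with exon counts (adjusted p = 0.000613). Gprk2, a kinase of the Fog receptor pathway, had 232 to 268 CPM in TM and 293 to 328 CPM in ctr (log2 fold change -0.31, edgeR adjusted p = 0.0209), but -0.05 with exon counts (adjusted p = 0.928). The genes of the list with the most gene-body counts were zip, the non-muscle myosin heavy chain, with 1492 to 1810 CPM in TM and 1803 to 1813 CPM in ctr, and ena, an actin polymerization factor, with 1115 to 1331 CPM in TM and 1283 to 1332 CPM in ctr. Their log2 fold changes were -0.11 and -0.12 (edgeR adjusted p = 0.452 and 0.428), and the median of the list was -0.05. Without TM2, ctr1 or ctr2, 1 gene of the list passed.

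Of 12 further genes of FGF signaling, 1 was higher and 3 were lower. ths, one of the ligands of Heartless, had 665, 656, 728 and 806 CPM in TM1 to TM4 and 558, 575 and 537 CPM in ctr1 to ctr3. Every TM library was above every ctr library, and the log2 fold change was 0.36 ± 0.09 (edgeR adjusted p = 0.0148), or 0.53 with exon counts (adjusted p = 0.0356). pyr, the other ligand, was lower, with 222 to 266 CPM in TM and 273 to 321 CPM in ctr (log2 fold change -0.32, edgeR adjusted p = 0.0324), and -0.09 with exon counts (adjusted p = 0.672). The kinase gene Raf and the ETS factor gene pnt were lower by gene-body counts at -0.31 and -0.29 (edgeR adjusted p = 0.02 and 0.0362), and neither passed with exon counts. aop, the ETS repressor of the pathway and the gene of the list with the most counts, had 749.7 to 986 CPM in TM and 942 to 974 CPM in ctr (log2 fold change -0.14), and the median of the list was -0.12. With 1 library left out, the count fell to 2 without TM1 or TM3, to 1 without TM2 or ctr1, and to 0 without ctr2 or ctr3.

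Of 18 other mesoderm genes tested from 20 listed, 2 were higher and 1 was lower. slou, a homeodomain gene of muscle founder cells, had 78, 69.6, 72.9 and 82.4 CPM in TM1 to TM4 and 47.2, 58.5 and 51.2 CPM in ctr1 to ctr3. Without overlap between the groups, its log2 fold change was 0.53 (edgeR adjusted p = 0.00841), and 0.49 with exon counts (adjusted p = 0.02). bap, the visceral mesoderm gene activated by tin, was higher at 6.09 to 14.5 CPM in TM and 2.55 to 4.84 CPM in ctr (log2 fold change 1.33, edgeR adjusted p = 0.0485), close to the threshold. kirre, an adhesion receptor of myoblast fusion, was lower at 150.4 to 158 CPM in TM and 221 to 227 CPM in ctr (log2 fold change -0.54, edgeR adjusted p = 0.00019), and -0.42 with exon counts (adjusted p = 0.347). how, an RNA-binding protein of muscle and tendon, and CadN, the N-cadherin of the mesoderm, had the most counts, at log2 fold changes of -0.12 and -0.09. CadN had 1006, 1157, 1247 and 2072 CPM in TM1 to TM4 and 1378, 1528 and 1473 CPM in ctr1 to ctr3, so that, as for Mef2, TM4 was above every ctr library and the other TM libraries were below. Without TM4 its log2 fold change was -0.36 (edgeR adjusted p = 0.00251). The median of the list was 0.04, and 5 genes passed without TM4 but 1 without ctr1.

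Among genes of regions outside the mesoderm, 0 of 19 tested from 20 listed were higher and 4 were lower. The 4 genes were pnr (a GATA factor), ush (its cofactor), tup (a LIM homeodomain factor) and Doc2 (a T-box factor). Other dorsally expressed genes of the list did not pass, with log2 fold changes of 0.20 for zen, 0.04 for dpp, 0.02 for peb and -0.18 for Doc1 and Doc3. pnr had 60.6, 65, 67 and 105 CPM in TM1 to TM4 and 113, 146 and 136 CPM in ctr1 to ctr3 (log2 fold change -0.82, edgeR adjusted p = 0.0114), and exon counts gave -0.81 (adjusted p = 0.0102). ush, tup and Doc2 had log2 fold changes of -0.51, -0.34 and -0.48 (edgeR adjusted p = 0.00917, 0.0283 and 0.0168), and none of the 3 passed with exon counts. For these 4 genes, TM4 was the TM library closest to ctr. sog and rho, of the neurogenic ectoderm, had log2 fold changes of 0.15 and -0.07 and the most counts. Without TM4, 6 genes of the list passed, and 2 of them, scw (log2 fold change 1.93, edgeR adjusted p = 0.0032) and tld (0.52, adjusted p = 0.0225), were higher. Without TM2 or ctr2, 2 genes of the list passed, and 1 without ctr1. ind was listed at 0 in the gene-body table, as was mir-1 of the mesoderm list. Exon counts of ind and mir-1 gave log2 fold changes of -0.09 and 0.46 (edgeR adjusted p = 0.665 and 0.0825).

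**Figure D5:**
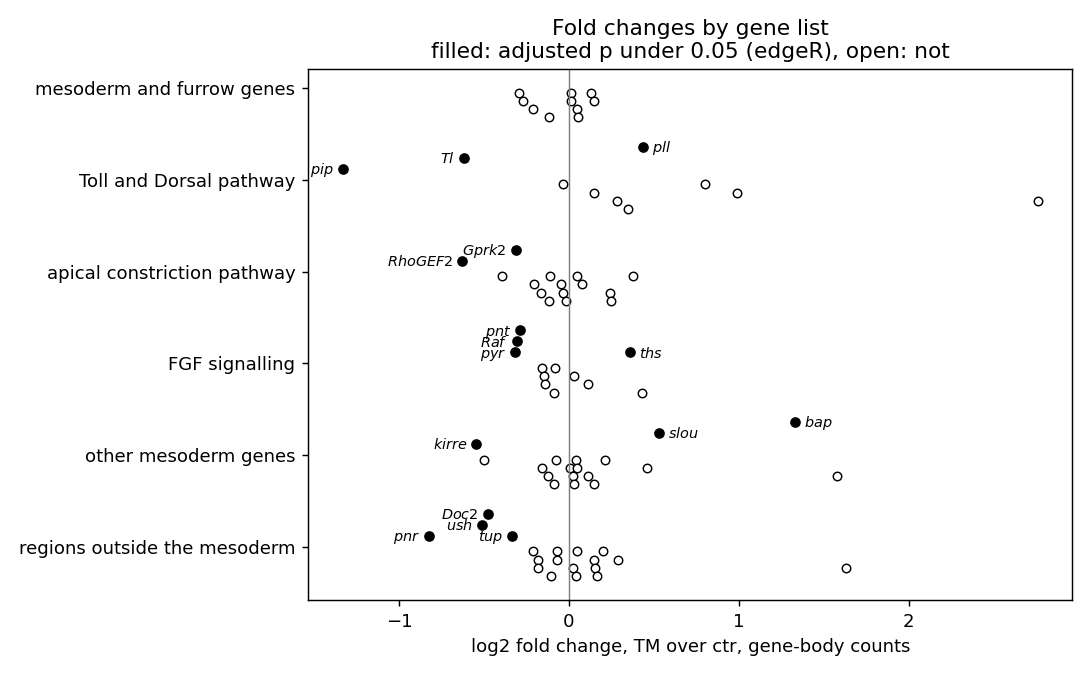
Log2 fold change of TM over ctr in gene-body counts (x axis) for the 10 mesoderm and furrow genes and for the tested genes of 5 lists around them; filled points passed an adjusted p of 0.05 (edgeR) and are named, open points did not pass. The 10 genes stay within -0.29 and 0.15 with none filled, while RhoGEF2 (-0.63), Tl (-0.62) and pnr (-0.82) lie further to the left.

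The genes most like the mean log2 CPM of the 10 over the 7 libraries, among 3871 genes averaging 1000 counts or more, were luna (Pearson r = 0.96), Paip2 (0.96), if (0.96), CG11357 (0.95) and eIF5B (0.95). These values describe 7 libraries that share the difference between TM4 and the others. if, the integrin subunit of muscle attachment, had 274, 280.3, 314 and 437 CPM in TM1 to TM4 and 366, 382 and 387 CPM in ctr1 to ctr3. As for Mef2 and zfh1, TM4 was above and the other TM libraries were below every ctr library. luna, a zinc finger gene, had 99.5, 84.4, 101 and 148 CPM in TM1 to TM4 and 111, 141 and 133 CPM in ctr1 to ctr3, and none of the 5 genes passed the test between TM and ctr.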

How the data were processed

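Gro-seq counts of 4 TM and 3 ctr libraries were analysed. The authors deposited raw counts per gene body, for which reads were mapped with Bowtie2 2.3.3.1 to dm6 and counted with featureCounts (Subread 1.5.3) on the sense strand, without reads over overlapping genes. They also deposited expected counts of genes and repeats estimated by TEtranscripts, which are whole numbers and are called exon counts here. Neither table was normalized. The 17753 FlyBase identifiers were given symbols from the reference tables (17626 through the identifier, 83 through overlapping coordinates), and 44 kept none. Each table was fitted as a whole with edgeR 4.0.16 in R 4.3.3, for features averaging 10 counts or more per library, with TMM factors, the quasi-likelihood test with condition alone, and Benjamini-Hochberg adjustment over all features, at a threshold of 0.05. Standard errors come from the fold change and its F statistic. The fit was tested on simulated data. Alternatives were DESeq2 1.42.0, a replicate block, other filters and scalings, exon counts and leaving out libraries.

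The 10 genes and all lists were chosen with earlier results of these data known. Named genes are the 10, genes of each list past the threshold, the 2 of each list with the highest mean CPM, and the 5 genes most alike. Others, such as nullo, bnk, dl, Prm, sls, scw and tld, were named after their values were seen. Replicates were labelled as separate samples, and counts carry no molecular identifiers, so that counts may include copies of one molecule. Sequences are from RefSeq. Repeats, CUT&Tag and imaging were not analysed here.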

Additional observations from a re-analysis of the deposited data

Results flagged for a closer look

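A single TM library stood off from the rest in 4 of 46 measures. By chance, about 1 in 20 groups, or 2.3 of 46, would be picked out if the measures were independent. They share the same 4 TM libraries, and some genes were named after their values were seen. The 2.3 is therefore no reference for the count of 4. The gap to the nearest library took up a share of 0.857 of the TM range for stumps, 0.981 for Mef2 and 0.856 for pnr, each with TM4 as the highest library, and 0.893 for RhoGEF2, with TM1 as the highest. Mef2 without TM4 had a log2 fold change of -0.50, against -0.21 with it. The measures were gene-body CPM of the genes named in the report and exon CPM of the 10 genes.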

How the results depend on the processing

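The calls of twi, Mef2 and zfh1 turned on TM4, and the call of T48 turned on TM4, the method and the count filter. Of the 10, 0 passed in the main analysis, 1 (T48) with DESeq2 and 1 (T48, adjusted p = 0.0479) without a count filter, and 4 without TM4, with the replicate block and without TM1 and TM4 together (chosen after seeing the data). Leaving out 1 library at a time gave 0 to 4. In the replicate block, TM4 has no ctr partner and adds nothing to the contrast; twi, Mef2, zfh1 and T48 passed (edgeR adjusted p = 0.0321, 0.000949, 0.00115 and 0.00261). The numbers do not pair the samples (r between -0.02 and 0.01 for equal numbers), and the block called 1526 genes. Exon counts left 1 gene called in each of the Toll and Dorsal, apical constriction, FGF, other mesoderm and outside-mesoderm lists, and library totals alone left 1 in the apical constriction, FGF and outside-mesoderm lists. The block gave 7 in the outside-mesoderm list. Leave-one-out counts ranged from 688 to 1667 over all genes, 1 to 3 in the Toll and Dorsal list, 1 to 3 in apical constriction, 0 to 4 in FGF, 1 to 5 in other mesoderm genes and 1 to 6 outside the mesoderm. Over all genes, library totals alone gave 614 higher and 488 lower genes, against 486 and 697 with TMM factors.

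Signs turned for 5 of the 10 genes, none of them past the threshold in the main analysis. The log2 fold change of stumps was -0.127 with the block, -0.108 without TM1 and TM4, and between -0.129 and 0.065 with 1 library left out. tin was -0.100 with the block, -0.187 without TM1 and TM4, and between -0.096 and 0.118 with 1 left out. zfh1 was 0.076 with exon counts. wntD was -0.001 with exon counts, -0.016 without TM1 and TM4, and between -0.054 and 0.057 with 1 left out. sna lay between -0.013 and 0.127 with 1 left out. The cause was not tested.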
